A study of Mus musculus with 12 samples.

Results

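Cytokine, chemokine and tumour necrosis factor (TNF) family genes were examined among the regions that lose DNA methylation in bone marrow progenitors of Dnmt1 mutant mice. The members were the regions of the authors' hypomethylated list whose gene symbol begins with Il, Ccl, Ccr, Cxcl or Cxcr and a digit, or with Tnfsf or Tnfrsf, and whose deposited distance to that gene is at most 5000 bp. This took 135 rows, which are 134 regions at 63 genes, of 35439 listed regions and 107115 candidate regions in all. Another 34 rows with such symbols lay farther away, and the 4 regions of the authors' hypermethylated list held 0 such rows. The list was made from the contrast of mutant against wild type, so the members were chosen by their lower mutant level, which is given here as a description without a test.

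Whole-genome methylation sequencing had been run on DNA of lin- bone marrow progenitors, cells depleted of mature blood lineages, from BALB/c mice. The control group is labelled wt. The mutant group is labelled dnmt1-/-, whereas the series text speaks of a specific mutation built after missense alleles of fish, so the mutant is called here by its gene alone; age is not given. Of the 12 samples, 6 belonged to each genotype, with 3 replicate numbers and 2 conversion kits per genotype, and the deposited table held 1 column per genotype and number (n = 3 against 3). The labels do not say whether replicates are separate animals, so errors and p-values measure the spread between these samples, which may be technical. Levels came without read counts, so the depth behind each is unknown. The cells are a mixture, and a change of level in each cell and a change in the makeup of the mixture cannot be told apart. The labelled cell type could not be checked against markers, since the values are methylation levels.

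Dnmt1 copies methylation of CG dinucleotides onto the new strand when DNA replicates, and its partial loss leads to passive dilution of the mark. Cytokines, chemokines and TNF family ligands are secreted or membrane-bound signals that steer growth, migration and survival of blood cells. Interleukin receptors mostly signal through JAK kinases and STAT factors, chemokine receptors through G proteins, and TNF receptors through TRAF and death domain adaptors. Many of these genes are best known from mature lymphoid, myeloid or epithelial cells.

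The sequences before the gene start show how many CG dinucleotides stand where a member region meets a promoter. A member region reached into the 250 bases before the start of 6 genes that the RefSeq promoter table holds, and these 6 are printed 5′ to 3′ from GRCm38.p6, the assembly that mm10 names. Capitals mark CG dinucleotides.
Tnfrsf17, chr16:11313559-11313808, plus strand: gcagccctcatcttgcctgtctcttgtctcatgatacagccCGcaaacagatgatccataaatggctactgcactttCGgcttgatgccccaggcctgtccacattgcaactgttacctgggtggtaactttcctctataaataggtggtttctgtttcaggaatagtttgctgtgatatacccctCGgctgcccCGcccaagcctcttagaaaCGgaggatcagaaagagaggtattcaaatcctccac
Ccl1, chr11:82179813-82180062, minus strand: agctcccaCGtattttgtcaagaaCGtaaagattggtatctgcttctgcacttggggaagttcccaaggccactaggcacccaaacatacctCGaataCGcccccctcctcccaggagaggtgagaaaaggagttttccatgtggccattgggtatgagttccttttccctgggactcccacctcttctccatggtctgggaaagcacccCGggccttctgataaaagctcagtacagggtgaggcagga
Ccl28, chr13:119623569-119623818, plus strand: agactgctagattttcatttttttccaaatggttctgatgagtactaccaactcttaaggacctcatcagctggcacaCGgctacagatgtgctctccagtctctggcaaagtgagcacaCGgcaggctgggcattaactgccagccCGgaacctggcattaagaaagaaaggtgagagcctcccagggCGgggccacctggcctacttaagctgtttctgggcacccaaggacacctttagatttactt
Cxcl3, chr5:90785851-90786100, plus strand: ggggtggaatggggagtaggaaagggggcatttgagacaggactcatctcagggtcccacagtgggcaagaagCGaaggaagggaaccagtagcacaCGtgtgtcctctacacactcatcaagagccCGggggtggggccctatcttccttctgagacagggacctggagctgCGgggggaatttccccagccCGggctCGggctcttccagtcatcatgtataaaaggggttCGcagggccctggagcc
Ccr4, chr9:114496545-114496794, minus strand: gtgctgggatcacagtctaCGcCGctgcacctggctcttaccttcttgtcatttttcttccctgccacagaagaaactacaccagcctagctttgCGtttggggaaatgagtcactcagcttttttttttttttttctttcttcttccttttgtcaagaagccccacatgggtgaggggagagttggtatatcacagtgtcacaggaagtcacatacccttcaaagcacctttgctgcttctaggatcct
Il22ra1, chr4:135727909-135728158, plus strand: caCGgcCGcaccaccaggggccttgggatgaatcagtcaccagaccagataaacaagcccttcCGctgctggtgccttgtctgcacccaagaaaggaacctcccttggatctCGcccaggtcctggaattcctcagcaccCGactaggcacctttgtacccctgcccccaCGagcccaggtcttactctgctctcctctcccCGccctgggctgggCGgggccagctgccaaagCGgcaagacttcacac
The region of Tnfrsf17, a receptor of plasma cells for B cell survival ligands, covered 211 of the 250 bases and all 5 CG of the run. At Ccl1 (ligand of Ccr8), Ccl28 (ligand of Ccr10) and Ccr4 (a homing receptor of T cells) the regions covered the whole run, with 5, 4 and 3 CG. At Il22ra1, the epithelial receptor chain for Il22, the region held 6 of the 9 CG. The region of Cxcl3, a neutrophil chemokine, touched only the last 19 bases, with 1 of 7 CG, and went on into the gene.

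Motifs were sought on both strands of these runs, with an overlap between motifs allowed. A form of the NF-kB site of 10 bases, 1 of them free, began at base 178 of the Cxcl3 run. TGANTCA, the AP-1 site, began at base 108 of the Ccr4 run and base 29 of the Il22ra1 run. TTCNNNGAA, a STAT site, was in none of the 6. Among all 32851 promoters of the table, that NF-kB form was held by 0.356%, TGANTCA by 6.75%, TTCNNNGAA by 7.02% and CG by 92.1%. Of the 56 promoters of the 47 member genes that the table holds, 2 held the first, 10 the second, 8 the third and 55 a CG, and the median was 5 CG against 6 in all promoters. These matches are letters in a window and not sites of binding.

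Over the 134 member regions the mean level was 44.5%, 46.7% and 49.2% in the mutant replicates and 74.5%, 75.7% and 75.9% in the wild-type replicates. The means were 46.8% ± 2.37 and 75.4% ± 0.741 (SD, n = 3), a difference of -28.6 percentage points. Every member region had all mutant replicates below all wild-type replicates, as did 100% of the listed regions after rounding (35422 of 35439) and 94.3% of all candidates, so nothing is read from that count. The other listed regions had nearly the same values, a mutant mean of 48.4%, a wild-type mean of 76.8% and a difference of -28.4 points. The median difference was -26.7 points in members and -26.1 points in the others.

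Losses within the family ranged from -20 to -51.8 points, with quartiles of -31.9 and -22.6. The 14 members below 20% in the mutant made up 10.4%, against 7.2% of the other listed regions. They include 3 regions of Il11ra1, far from its RefSeq span, and 2 of Il4i1, which encodes an enzyme. The share without these was not computed. The 14 with a loss of at least 40 points likewise made up 10.4%, against 8.5%. Mutant members kept 62.1% of the wild-type mean level, and 30 of them (22.4%) kept under 50% of their own wild-type level, against 18.7% of the other listed regions. The members had a median of 12 CpGs (the authors' count) and of 731 bp, and 22 of them (16.4%) had a metilene q-value under 0.05, against 23.4% of the other listed regions. Chromosome 4, which carries Il22ra1, Il11ra1 and Tnfrsf9, held 27 of the 134. These include the 8 regions of Il11ra1, far from its RefSeq span, and the 4 of Tnfrsf9, listed for Camta1 too. The share of all listed regions on chromosome 4 was not computed. Mutant replicate 1 was the lowest of the mutant replicates at 80 members (59.7%) and at 56.4% of the other listed regions.

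The rule has a distance limit, and the list behind it a limit of 20 points. Just inside 5000 bp lay regions of Il27 (-4647 bp, loss of 23.4 points), Ccr7 (4480 bp, 32.0 points) and Ccr8 (4170 bp, 43.9 points). Just outside lay regions of Cxcl14 (-6066 bp, 31.1 points), Ccl17 (-6154 bp, 27.7 points) and Ccl24 (-6297 bp, 20.2 points). Tnfrsf17 and Il17rd had members at -20 points by the means of the replicate columns. By the authors' own difference Tnfrsf17 was at -20.4 points, and the smallest absolute difference of a member was 20.1 points. Candidate regions of Il23a and Tnfrsf18 (both -20.4 points), Cxcr5 and Il21 (both -20 points) were not in the list.

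By class, the 24 regions at 10 interleukin genes averaged 48.8% ± 1.55 in mutant and 77.8% ± 0.724 in wild-type replicates (SD, n = 3). The 49 regions at 18 interleukin receptor genes averaged 48.6% ± 2.93 and 76.8% ± 0.801. Chemokines had the lowest mutant mean of the ligand and receptor classes, with 41.3% ± 2.91 against 73.8% ± 1.36 over 15 regions at 9 genes. Their receptors averaged 45.1% ± 2.22 against 73.3% ± 0.545 over 17 regions at 9 genes. The 7 regions at 5 TNF ligand genes stood highest in the mutant, at 52.0% ± 2.40 against 75.7% ± 1.31, and the 20 regions at 11 TNF receptor genes averaged 47.1% ± 2.01 against 74.5% ± 0.784. Il4i1 matches the symbol pattern but encodes an amino acid oxidase, and its 2 regions averaged 14.7% ± 2.49 against 47.4% ± 2.68. Differences of the ligand and receptor classes thus ran from -23.7 points in TNF ligands to -32.5 points in chemokines. Of the 15 chemokine regions, 5 are at Ccl1, most of them far outside its RefSeq span, and 3 at Cxcl14. This order holds for listed regions only. At candidate regions of family genes outside the list, chemokines had the highest mutant mean of these classes (67.1%) and TNF ligands the lowest (53.9%).

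**Figure D1:**
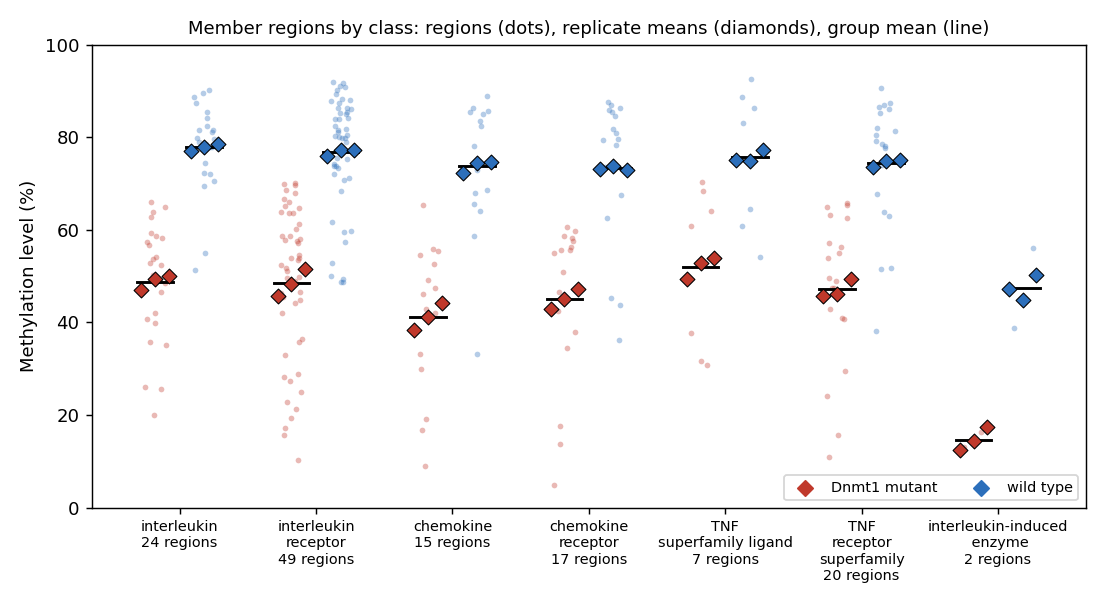
Methylation level (%) of each member region by class of gene, with dots for regions, diamonds for the mean of each of 3 replicates per genotype and a line for the group mean. Replicate means of the mutant lie below those of the wild type in every class, from 12.4% at Il4i1 to 53.9% in TNF ligands.

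Position in the gene went with the wild-type level. The 20 regions within 1 kb of the gene start averaged 65.1% ± 1.28 in the wild type and 36.6% ± 2.16 in the mutant (SD, n = 3). The 85 other regions inside genes averaged 76.8% ± 0.815 and 48.6% ± 2.08. The 18 upstream regions averaged 76.9% ± 0.883 and 46.0% ± 4.01, and the 11 downstream regions 80.1% ± 0.816 and 53.1% ± 3.0. Place was read from the RefSeq span, so regions inside genes include some before the start used, at Il16, Ccr4 and Ccr6. Most of the upstream regions are among the 13 members, at Il11ra1, Ccl1 and Il1r2, that lie more than 5 kb outside that span. The deposited gene model covers 12 members that lie outside the RefSeq span. The loss in points was alike near the start (-28.5) and farther away (-28.6), so that regions near the start kept 56.2% of the wild-type level and the others 63.0%. Whether these shares differ was not tested, since the list chose both.

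**Figure D2:**
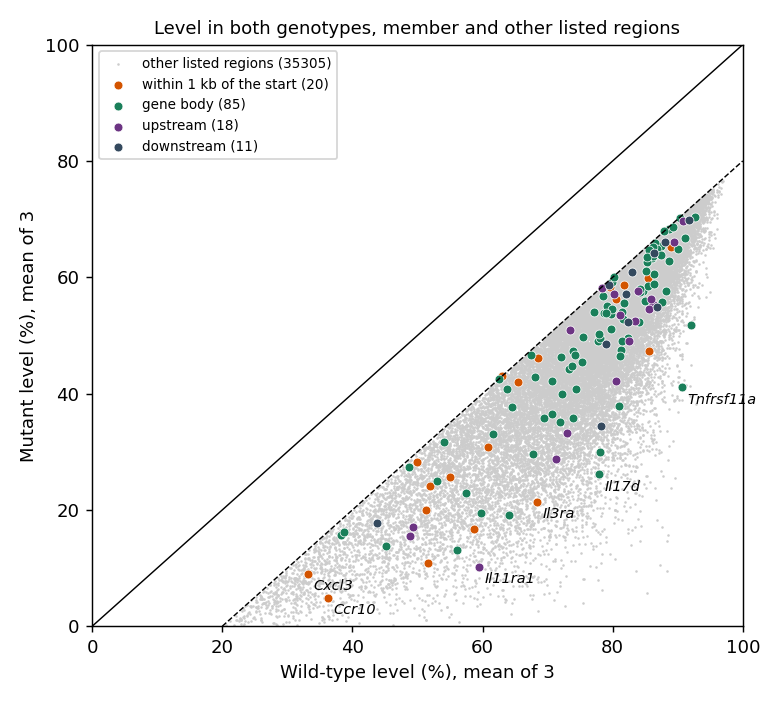
Wild-type level (%, x axis) against mutant level (%, y axis) of listed regions, each a mean of 3 replicates, with members coloured by position and the other listed regions in grey; the solid line marks equality and the dashed line a loss of 20 points. Members lie among the grey points, and Ccr10 and Cxcl3 sit at the lower left with mutant levels of 4.89% and 8.96%.

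Among interleukin genes, Il17d held the largest loss of all members. This member of the Il17 cytokine family had a region of 40 CpGs (the authors' count) inside the gene (mm10 chr14:57542123-57542654). Its level was 37.7%, 29.4% and 11.3% in the mutant replicates and 77.0%, 75.8% and 80.9% in the wild-type replicates, a difference of -51.8 points. The mutant replicates spread over more than 20 points here (SD 13.5, the largest among members), yet the highest was far below the lowest wild-type replicate. Leaving out 1 replicate at a time moved the difference between -57.6 and -44.3 points.

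Il34, an alternative ligand of the receptor that sustains macrophages, held 8 regions spread along the gene. Their losses ran from 21.8 to 36.8 points. The deepest (chr8:110792640-110793433) measured 40.1%, 34.6% and 30.8% in the mutant replicates and 70.2%, 73.2% and 72.5% in the wild-type replicates. Among the 8, 1 was listed for Mtss1l and 2 for Gm15894 too. The widest, with 37 CpGs (chr8:110746627-110748900), stood at 50.3% ± 2.89 against 78.0% ± 4.82 (SD, n = 3).

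Il11, a cytokine of the Il6 group, had a region of 18 CpGs in the gene (chr7:4775901-4776487). It measured 40%, 38.5% and 43.6% in the mutant and 73.1%, 76.1% and 73.9% in the wild type. Il27 modulates T cell responses, and its region at the gene start (chr7:126594083-126595549) measured 22.8%, 28.7% and 25.3% against 54.8%, 54.1% and 55.9%. Il31, a cytokine linked to itch, had its region just after the start (chr5:123482013-123482335) at 16%, 22.2% and 21.9% against 52.8%, 51.0% and 50.2%. Both start regions were thus between 50.2% and 55.9% in every wild-type replicate, with all mutant replicates between 16% and 28.7%. The 3 regions of Il17b lost between 20.1 and 26.9 points.

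Interleukin receptors gave the most regions. Il22ra1 held 9, more than any other gene, and they ran from the promoter to the end of the gene. Levels were lowest in the middle of the gene, where the region at chr4:135743165-135743939 measured 24%, 24.8% and 26.1%, against 48.9%, 56.9% and 53.0% in the wild type. Its neighbour at chr4:135744859-135745982 measured 30.1%, 39.3% and 38.1% against 75.4%, 72.4% and 73.8%, the largest loss of the gene (38.0 points). At the first 3 and the last 2 regions of the gene, mutant means were between 58.7% and 70.1% and losses between 20.2 and 23.7 points.

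**Figure D3:**
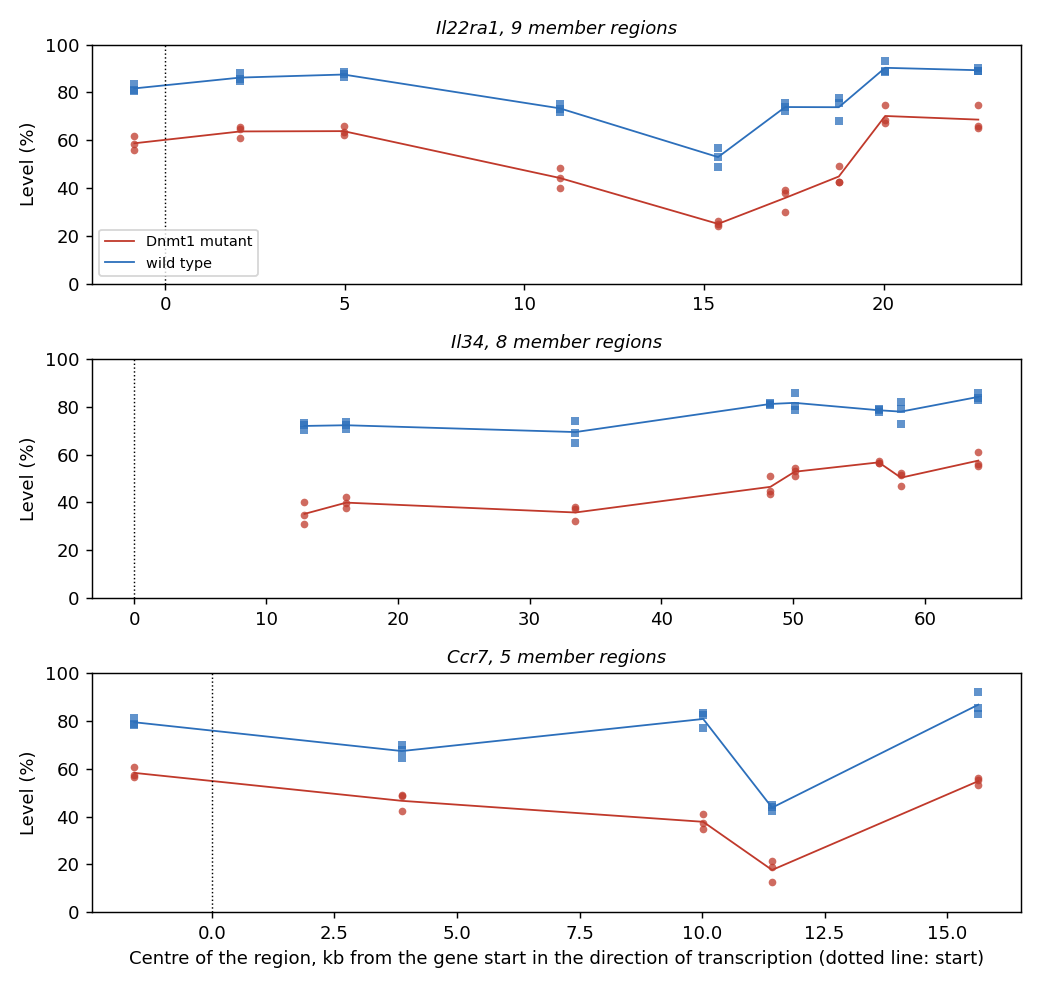
Methylation level (%) of the member regions of Il22ra1, Il34 and Ccr7 against the centre of each region in kb from the gene start, with points for replicates (3 per genotype) and lines for group means. Mutant and wild-type points are apart at every region, as at nearly all listed regions. The loss is largest in the middle of Il22ra1 and at 1 region of Ccr7 (43.1 points).

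Il3ra encodes the binding chain for Il3, a growth factor of early progenitors. Its region lay within 1 kb after the gene start (chr14:14346778-14347226) and measured 18.2%, 26.1% and 19.7% in the mutant replicates. The wild-type replicates were at 63.7%, 76.3% and 65.0%, so that the difference was -47.0 points and 31.2% of the level was kept. Il6ra, the binding chain for Il6, had a region at chr3:89870543-89870793 with 53.0%, 49.9% and 52.7% against 93.0%, 91.3% and 91.8%, a tight pair of groups 40.2 points apart. Its other regions lost 21.2 and 29.8 points.

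Il12rb1, shared by the receptors for Il12 and Il23, held 4 regions. The deepest (chr8:70821875-70822139) measured 13.7%, 19.1% and 25.6% in the mutant and 51.2%, 63.8% and 64.3% in the wild type. The other regions of Il12rb1 lost 25.4 to 27.6 points. Il2rb, a chain shared by the Il2 and Il15 receptors, had 3 regions that lost 20.9 to 27.6 points. Il2ra, the high-affinity chain for Il2, had 1, at 65.2% ± 2.86 against 86.1% ± 1.52. Il4ra lost 21.7 to 25.7 points at 3 regions, and Il31ra 21.9 to 28.6 points at 3. Il1r1, the signalling receptor for Il1, lost 28.7 and 32.5 points at 2 regions. Among Il2ra, Il2rb, Il4ra, Il31ra and Il1r1, only the regions of Il1r1 and 1 region each of Il2rb and Il31ra exceeded the median loss of the family.

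Il11ra1, the receptor chain for Il11, held 8 regions in the list, and the deepest measured 7.58%, 11.6% and 11.4% in the mutant against 59.4%, 60.9% and 57.9% in the wild type (chr4:41712067-41712839). All 8 lie 27039 to 53766 bp before the RefSeq span of the gene, and some overlap Rpp25l, Dctn3 and Arid3c, so their place in the gene rests on the deposited gene model alone. The RefSeq span plus 5 kb held 6 other candidate regions, none of them listed. They averaged 73.6% ± 2.51 in mutant against 87.4% ± 1.18 in wild-type replicates (SD, n = 3). All 6 were lower in the mutant with limma, as were 90.3% of all candidates in neither list, so nothing is read from that count. A near-identical copy of Il11ra1 exists in the mouse genome, and how the authors shared reads between copies was not stated in the labels. The 2 regions of Il4i1 lie in the overlapping gene model Il4i1b as well and cannot be given to 1 of the 2. Ccl1 had 4 regions that lie 45162 bp or more from its RefSeq span, and Il1r2 had 1 at 10786 bp. Without these 13 regions, an alternative chosen after seeing the data, 121 regions at 61 genes remain with a mean difference of -28.1 points.

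Among chemokine genes, Cxcl14, a chemokine made mainly by epithelia, had 3 member regions, 2 inside the gene and 1 just before its start. At chr13:56292450-56293121 the levels were 23.8%, 31.7% and 34.5% in the mutant and 73.7%, 81.6% and 78.8% in the wild type, a difference of -48.1 points. At chr13:56293627-56294321 they were 21.4%, 19.8% and 16% against 66.4%, 57.3% and 68.3%. At chr13:56296836-56297437, before the start, they were 16.2%, 19.1% and 14.9% against 56.7%, 60.1% and 59.4%. The groups were far apart at each, and the mutant kept between 28.5% and 38.4% of the wild-type level. Within 5 kb of the gene, 2 candidate regions outside the list lost less, 14.7 points and 6 points, the latter from a wild-type mean of only 8.41%.

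Cxcl10 and Cxcl11 are neighbouring genes on chromosome 5 for ligands of Cxcr3. The Cxcl10 region (chr5:92347817-92348203), which also lies in Art3, measured 40.1%, 45.7% and 56.2% against 86.6%, 87.6% and 82.4%. The region upstream of Cxcl11 (chr5:92365080-92365787), which lies in Art3 and Gm2673 and is listed for both too, measured 47.3%, 59.4% and 56.7% against 82.9%, 90.7% and 83.3%. Both stood above 80% in every wild-type replicate. The Cxcl3 region at the promoter printed above (chr5:90786082-90786422) was of another kind, with 10.7%, 10.3% and 5.89% against 29.4%, 43.2% and 26.9%, the lowest wild-type mean of all members.

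The promoter region of Ccl1 (chr11:82179511-82180653) measured 38.9%, 45.1% and 54.5% in the mutant and 72.5%, 64.3% and 68.8% in the wild type. The Ccl28 region (chr13:119623556-119624136) measured 61.2%, 65.9% and 68.7% against 84.6%, 91.1% and 91.1%. Mutant replicates at Ccl28 thus stayed above 60%, whereas those of Ccl1 ranged from under 40% to over 50%. Cxcl12 holds blood stem cells in the marrow through Cxcr4, and the 2 genes had 1 region each. Cxcl12 stood at 55.9% ± 8.83 against 85.0% ± 1.78, and Cxcr4 at 60.5% ± 2.16 against 86.3% ± 2.43 (SD, n = 3).

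Among chemokine receptors, Ccr10, a homing receptor of skin and mucosal lymphocytes, kept the least methylation of all members. Its region (chr11:101174466-101175088), shared with Cntnap1, measured 5.56%, 5.33% and 3.78% in the mutant replicates. The wild-type replicates were at 34.9%, 46.6% and 27.1%, so the mutant kept 13.5% of the wild-type mean. The wild-type replicates were spread (SD 9.79) and the mutant ones were not (SD 0.969).

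Ccr7, which guides lymphocytes and dendritic cells to lymph nodes, held 5 regions. The one inside the gene at chr11:99144875-99145233 measured 37.4%, 34.9% and 41.2% against 82.4%, 77.0% and 83.3%. The one before the gene start, 912 bp away at its near end (chr11:99155989-99157330), measured 56.8%, 57.4% and 60.8% against 78.9%, 78.5% and 81.2%. The second region inside the gene (chr11:99150263-99152142) measured 42.2%, 49.1% and 48.6% against 64.7%, 69.9% and 67.8%. Losses inside Ccr7 were thus 43.1 and 20.8 points, and 21.2 points before its start.

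Ccr8, the receptor for Ccl1, had a region behind the gene (chr9:120099075-120099446) at 33.4%, 37.1% and 32.6% against 76.9%, 78.8% and 79.0%. Of the 3 regions of Ccr4, that at chr9:114498607-114498992 lay inside the RefSeq span but before the start used (-2063 bp). It was low in both genotypes, at 10.2%, 17.4% and 13.8% against 42.8%, 48.6% and 44.2%. The Ccr4 region over the promoter printed above measured 57.9%, 59.7% and 61.8% against 85.0%, 82.9% and 88.6%. Mutant levels within Ccr4 thus ranged from 13.8% to 59.8%. The 3 regions of Ccr6, the receptor for Ccl20, lost 20.1 to 27.1 points, and the region of Cxcr5, which brings B cells into follicles, lost 31.9 points.

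Over the member regions, TNF superfamily ligands lost the least of the ligand and receptor classes. At candidate regions outside the list they did not. Their median there was -14.4 points, with class medians from -14.9 points in chemokines to -13.1 points in chemokine receptors. Tnfsf11, the ligand that drives osteoclast formation, had 3 regions with losses of 22.1, 22.2 and 22.3 points. The region inside Tnfsf11 (chr14:78291456-78292374) measured 70.9%, 67.5% and 72.6% against 92.3%, 90.4% and 95.4%. The region of Tnfsf12, which the list also gives to the read-through gene Tnfsfm13, measured 25.7%, 30.9% and 35.7% against 59.6%, 61.3% and 61.4% (chr11:69695228-69695501). Tnfsf13b, a survival factor of B cells, lost 22.4 and 20.4 points at 2 regions, and Tnfsf14, a ligand of activated T cells, 26.7 points at 1. Replicate groups were apart at each of these, as at nearly all listed regions.

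Tnfrsf11a, the receptor for Tnfsf11, lost more than its ligand. Inside the gene (chr1:105813664-105813805) it measured 41.5%, 36.9% and 44.7% against 86.7%, 91.1% and 94.2%, a difference of -49.6 points. Just after the start (chr1:105781282-105781851) it measured 13.9%, 10.2% and 8.44% against 45.6%, 57.1% and 52.0%, a difference of -40.7 points. At the latter the mutant kept 21% of the wild-type mean. The contrast of ligand and receptor is a description of listed regions and was not tested.

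Tnfrsf25, a death receptor of T cells, had a region of 26 CpGs (chr4:152119557-152119953) at 26.2%, 35.8% and 26.8% against 77.4%, 61.8% and 64.2%. Tnfrsf13c, the receptor of B cells for Tnfsf13b, had a region just before its start (chr15:82224757-82225628) at 25.2%, 21.7% and 25.3% against 51.1%, 50.9% and 53.6%. Tnfrsf17, shown by sequence above, had the smallest difference of replicate means among members (-20 points), though not of the authors' own differences. It measured 43.3%, 35.2% and 50.4% against 69.4%, 56.0% and 63.6%. Its highest mutant and lowest wild-type replicate were only some points apart, whereas the groups of Tnfrsf13c were separated by more than their whole spread.

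Tnfrsf9, a costimulatory receptor of T cells, held 4 regions that lost 24.1 to 33.8 points, all of them listed for the neighbouring gene Camta1 too. Tnfrsf1a and Tnfrsf1b are the receptors for TNF itself. Tnfrsf1a lost 22.6 and 28.7 points at 2 regions, the first of them at only 38.2% ± 1.97 in the wild type and 15.6% ± 2.27 in the mutant (SD, n = 3). Tnfrsf1b lost 22.0 points at 1 region, from 87.4% ± 0.949 to 65.4% ± 2.83.

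The rule for naming genes left out 23 member genes with 30 regions. Their differences ran from -20 to -34.6 points with a median of -24.3 points, mutant means from 8.96% to 67.9% and wild-type means from 33.2% to 91.2%. They include receptor chains for the Il17 family (Il17rb, Il17rc, Il17rd, Il17re), cytokines of type-2 immunity (Il13, Il25) and anti-inflammatory Il10, whose region measured 44%, 35.7% and 46.7% against 66.8%, 74.9% and 70.2% (chr1:131021902-131022605). The largest loss among them was inside Il17re (chr6:113469898-113469966), at 19.8%, 23.1% and 25.8% against 55.7%, 64.2% and 52.4%. Il10 and Il17re were picked out after their values were seen, and their groups did not overlap, as at nearly all listed regions.

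**Figure D4:**
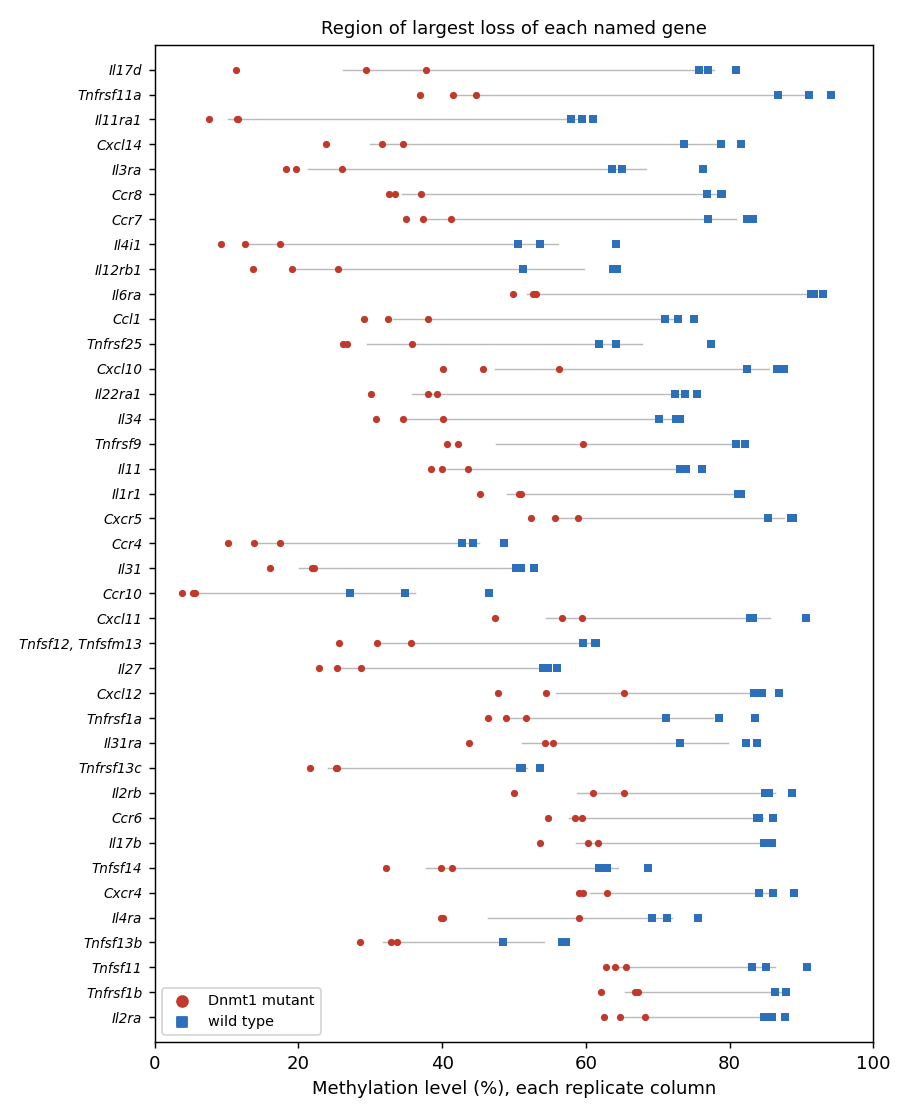
Methylation level (%) in each replicate at the region of largest deposited loss of each named member gene, with circles for the 3 mutant and squares for the 3 wild-type replicates, ordered by the difference. The groups are apart at every gene, as at nearly all listed regions, and the mutant circles spread most at Il17d (SD 13.5).

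Candidate regions that the rule did not take were tested too. Their table comes from the region caller run on the same samples, and the list had already taken most of the losses of 20 points or more, so counts of calls are read only against the background. Around the 169 protein-coding family genes of the RefSeq table, 267 candidate regions within 5 kb of the gene span were in neither list. With limma and Benjamini-Hochberg adjustment over all 107115 candidates (threshold 0.05), 242 of them were lower in the mutant and 0 were higher. None was higher at an unadjusted p under 0.05 either. Background shares among candidates in neither list were 90.3% lower and 0.067% higher, so the 90.6% lower of the family is near the background. Over all candidates, 93.5% were lower and 0.0485% higher. The median difference was -14.0 points in the family and -13.5 points in all candidates in neither list.

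**Figure D5:**
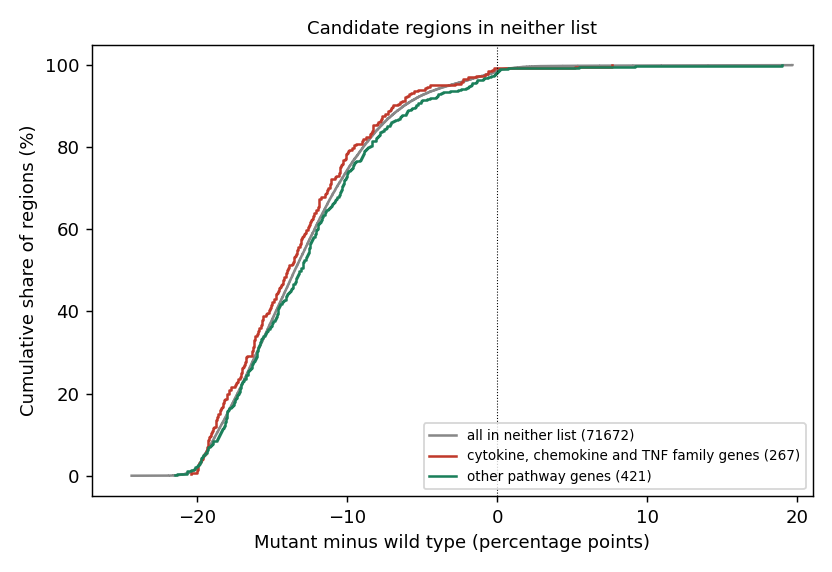
Cumulative share of regions (%) against the difference of mutant minus wild type in percentage points, for candidate regions in neither list at all genes, at cytokine, chemokine and TNF family genes and at other pathway genes. The family curve runs close to the curve of all regions, with medians of -14.0 and -13.5 points.

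By class the share called lower was 50 of 53 for interleukins, 97 of 110 for interleukin receptors, 18 of 19 for chemokines, 17 of 18 for chemokine receptors, 9 of 10 for TNF ligands and 54 of 60 for TNF receptors. Of the 25 regions not called, 12 had a wild-type level under 10%. In that range 4 of 16 family regions were lower (25%), against 13.3% of the candidates in neither list. Only 2 regions had a higher mean in the mutant, at Il12rb1 (+7.65 points, limma adjusted p = 0.254) and Il1rl2 (+5.20 points, limma adjusted p = 0.370), and neither passed the test.

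Il6st, the signal chain shared by the Il6 group of cytokines, had 7 candidate regions and none in the list. All 7 were lower, by 6.92 to 16.2 points, with a median of -13.9 points. The region at chr13:112472209-112473038 measured 75.5%, 82.1% and 79.7% in the mutant and 94.6%, 94.0% and 90.3% in the wild type (limma adjusted p = 0.000838). Tnfrsf13b, a further receptor for Tnfsf13b, had 6 such regions, 5 of them lower, and the deepest lost 19.8 points. Of all candidates in neither list, 90.3% were lower, with a median of -13.5 points, so nothing is read from the counts at Il6st and Tnfrsf13b. Ccl25, a chemokine that draws progenitors to the thymus, had 1 region (chr8:4328103-4329477), at 69%, 74.2% and 83% against 90.3%, 92.8% and 91.9% (limma adjusted p = 0.00187). At these regions of Il6st and Ccl25 the mutant replicates lay between 69% and 83%, and the groups did not overlap, as at 94.3% of all candidates.

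Il18 was not a member, since its only candidate region is listed for another gene. It measured 84.1%, 74.4% and 55.4% in the mutant against 96.6%, 96.8% and 93.2% in the wild type. No candidate region lay at 67 of the 169 family genes, among them Il7 and its receptor Il7r, Il2rg, Il15, Ccr9 and Cxcr2, so these key genes of lymphoid and neutrophil biology were not analysed here. A candidate region lay at 102 family genes (60.4%, against 64.8% of all protein-coding genes). A listed region lay at 67 of the 169 (39.6%, against 42.2%). Of the 35 with candidate but no listed region, 33 had a region that was lower, and the exceptions were Ccl6 and Il12b. The matching share of all genes was not computed. Since 90.3% of all candidates in neither list were lower, nothing particular to the family is read from that count.

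Outside the list, 3 further genes illustrate the range of levels. Il4, the cytokine of type-2 T helper cells, had a region at 47.2%, 44.4% and 57.2% against 66.2%, 66.8% and 74.8% (chr11:53615993-53616818, limma adjusted p = 0.00117). Ccl5, a chemokine of T cells and platelets, had one at 67.1%, 69.0% and 75.1% against 87.2%, 87.1% and 83.2% (chr11:83528351-83529562, limma adjusted p = 0.000689). Cxcl1, a neutrophil chemokine, was low in both groups, at 6.78%, 13.9% and 15.4% against 27.3%, 25.2% and 20.4% (chr5:90891324-90891646, limma adjusted p = 0.00396). The losses were 19.6 points at Il4, 15.4 at Ccl5 and 12.3 at Cxcl1. The groups did not overlap at any of them, as at 94.3% of all candidates. These 3 genes were chosen after their values were seen.

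Signalling genes outside the symbol patterns were taken from a list of 110 ligands, receptors, JAK, STAT, SOCS, TRAF and NF-kB genes. Of these, 90 had candidate regions within 5 kb and 89 had at least 1 that was lower. The matching share of all genes was not computed, so nothing is read from the count of genes. Among their 557 regions, limma called 509 lower, 1 higher and 47 neither, with a median difference of -15.6 points against -16.6 points in all candidates. The authors' lists held 136 of the 557, chosen by their difference, so the calls of those are no separate evidence. The share called lower was 91.4%, against 93.5% of all candidates, so nothing particular to these genes is read from the counts. By group, 39 of 43 regions were lower at haematopoietic ligands, 107 of 120 at haematopoietic receptors, 25 of 27 at other chemokine genes and 36 of 38 at other TNF superfamily genes. Downstream, 87 of 94 were lower at JAK and STAT genes, 38 of 45 at SOCS and PIAS genes, 64 of 70 at TRAF and death domain adaptors and 113 of 120 at NF-kB and toll adaptors.

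The region of largest loss in each of these 8 groups, picked out after the values were seen, was as follows, with SD and n = 3 throughout. Lifr, a receptor of the Il6 group, stood at 25.1% ± 7.42 against 83.9% ± 2.58, a difference of -58.8 points. Edar, a TNF receptor family member of skin appendages, stood at 12.5% ± 5.25 against 67.2% ± 3.77 (-54.7 points). Tyk2, a JAK kinase, stood at 37.3% ± 5.4 against 88.7% ± 5.55 (-51.3 points). At Lifr, Edar and Tyk2 the gap between the genotypes was far wider than the replicate spread. Each was picked for its large loss, and the genotypes did not overlap at 94.3% of all candidates, so nothing is read from that gap. Flt3l, the ligand of the progenitor receptor Flt3, stood at 24.7% ± 1.09 against 75.3% ± 2.0 (-50.6 points). Nfkb2, of the alternative NF-kB pathway, stood at 18.9% ± 0.832 against 61.6% ± 5.15 (-42.7 points). Traf3, which restrains that pathway, stood at 27.6% ± 2.13 against 68.0% ± 2.64 (-40.4 points). Smaller were the largest losses of the SOCS and PIAS group, at Socs1, a feedback inhibitor of JAK kinases (-34.4 points), and of the other chemokine genes, at Ackr1, a scavenging receptor (-28.6 points). Ifnlr1 (-56.7 points) and Ngfr (-51.4 points) also lost more than 50 points.

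The 1 region that was higher in the mutant lies within 5 kb of Tradd, a TNF receptor adaptor, but inside the span of Fbxl8 (chr8:105268788-105268867). It measured 62.1%, 65.7% and 69.7% in the mutant and 52.9%, 29.8% and 57.8% in the wild type (limma adjusted p = 0.0189). The wild-type replicate 2 was far below the other two, and without mutant replicate 3 no region of the pathway list was called higher, whereas 3 were without wild-type replicate 3 and 2 without mutant replicate 1.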

How the data were processed

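Whole-genome methylation sequencing covered 12 samples, 6 per genotype from 2 conversion kits. For 107115 candidate regions the authors deposited levels as a fraction, with 1 column for each of 3 replicates per genotype. The labels tie each column to both kits without stating whether they were merged; the aligner and the caller of methylation were not given in the sources used here. Coordinates are mm10, per the submitters' processing notes, and file names point to metilene as the region caller. Deposited lists hold group means as a fraction, their difference as a score, the q-value of metilene and an unnamed test's adjusted p-value. A check of the list found 10 or more CpGs and 20 or more points of difference in every region, with adjusted p-values up to 0.0154 and q-values up to 1.

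Fractions were multiplied to percent, and each printed mean is over replicate columns. At members these differ from the authors' group means by at most 4.86 (mutant) and 6.41 points (wild type). The deposited distance is 0 where region and gene overlap (111 of the 135 member rows) and negative upstream. Gene starts came from the RefSeq promoter table of GRCm38.p6 for 47 genes (98 regions) and otherwise from the end of the RefSeq span that the deposited strand gives. Of the members, 22 were listed for another gene too.

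Percent levels of all candidates were fitted with limma 3.58.1 (R 4.3.3), adjusted by Benjamini-Hochberg and called at 0.05; the fit was tested on simulated data. Tables were handled in Python 3.11.15 with pandas 2.3.3. Replicate numbers are not stated to pair the genotypes, so the main fit did not use them as pairs. Alternatives were other distance limits, gene windows, list thresholds, scales, limma settings and fits without 1 replicate. The members, the lists and the tests were chosen with earlier results of these data known.

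Named were, in each of 6 classes, the 4 genes with the largest losses, genes with 3 or more regions, up to 10 genes with a region within 1000 bp of the start, and 26 genes of lymphoid and progenitor biology, of which 16 are members and 6 have no candidate region. Genes whose promoters are printed were described too.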

Additional observations from a re-analysis of the deposited data

How the results depend on the processing

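The member count depends on the list threshold: a metilene q under 0.05 left 22 regions at 15 genes with a mean difference of -35.5 points, and a loss of at least 30 points left 46 regions at 32 genes. Leaving out 1 replicate at a time gave mean differences of -29.8 to -27.4 points. Unlisted family regions lower in the mutant numbered 155 of 172 with the gene span alone, where fewer regions were tested, and 224 to 246 without 1 replicate. Those higher numbered 1 of 354 with a window of 10 kb, and 0 to 1 without 1 replicate, the 1 without mutant replicate 1. Pathway regions higher in the mutant numbered 0 of 418 with the gene span alone and 0 to 3 without 1 replicate, and those lower 486 to 507. Over all candidates, 171 were higher on the logit scale, 82 with limma-trend and 30 to 63 without 1 replicate (30 without wild-type replicate 1); the cause was not tested. With the authors' group means, the Ccr8 difference was -41.0 points. No direction reversed. Deviations from the group means correlated at 0.037, 0.0049 and 0.050 between same-numbered replicates of the 2 genotypes. Between differently numbered ones they correlated at -0.051 to 0.012. Such weak values cannot decide whether the numbers pair the genotypes. With the replicate number as a block, 246 family regions were lower and 0 higher, and 507 pathway regions were lower and 2 higher. Depth is unknown, so no limit from counting could be set.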
